A study of Mus musculus with 6 samples.

Results

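Transcripts of 35 homologous recombination and Fanconi anaemia genes were followed in sorted mouse blood stem cells. The genes are a fixed list, and each was found by its symbol among the 50763 gene symbols of the deposited table. RNA was measured by bulk sequencing in CD34- KSL cells of bone marrow, which lack lineage markers and CD34 protein, carry c-Kit and Sca-1, and hold the long-term blood stem cells. All mice had the genotype Tal1-tTA+/TRE-EGFR-tr+, so controls also carried both transgenes. The first encodes a doxycycline-repressed activator named for the blood stem cell gene Tal1, and the second is its target, a truncated epidermal growth factor receptor (EGFR) without the cytoplasmic kinase domain. In the EGFR-DN group (n = 3) the drinking water held no doxycycline, so that by design the truncated receptor was made beside any wild-type one. In the EGFR-WT group (n = 3) it held doxycycline at 0.2 g/L, so that by design only the wild-type receptor could be made. Doxycycline and the truncated receptor therefore cannot be told apart. The labels give neither age nor the number of animals behind a library, and they do not say that replicates came from separate mice, so each p-value rests on a spread between samples that may be technical only.

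The Fanconi anaemia pathway removes interstrand DNA crosslinks that stall replication forks. A core complex attaches ubiquitin to the FANCD2-FANCI pair, nucleases then unhook the crosslink, and the resulting break is mended by homologous recombination, which copies the sister chromatid. Inherited loss of many of these genes causes Fanconi anaemia, in which the marrow loses its stem cells. Most of these proteins act in S and G2 phase, and many of their genes are transcribed more in cycling cells.

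Depth lay between 24073133 and 36032428 total counts a library. Egfr, which checks the labels, was counted 4022, 4758 and 991 times in EGFR-DN replicates 1 to 3 and 6 times in every control. Little transcript of the wild-type receptor was thus seen in the controls, and the counts do not measure receptor protein. EGFR-DN replicate 3 stood apart from the others. It had 25.4% of its counts in rRNA-like genes, where the others had 4.71% to 6.15%, and 0.914% in ribosomal protein genes, where the others had 2.49% to 2.71%. Values without that library are given beside those with it, on the log2 scale. Of the markers that define the sorted cells, Kit was at 736 to 1962 CPM (counts normalised to library size and scaled by the trimmed mean of M-values, TMM) and Ly6a, the Sca-1 gene, at 46.7 to 78.4 CPM. Procr, another stem cell marker, was lower in every EGFR-DN library, at 22.9, 32.4 and 15.1 CPM against 74.95, 43.0 and 50.4 CPM (log2 fold change -1.25, SE 0.33, edgeR adjusted p = 0.690; -1.02 without EGFR-DN replicate 3). Of the 6 defining markers, 3 were above 0, and 1 without that library. The part of this difference in the member values was not tested. Cd34 transcript was present at 318 to 569 CPM, although the sort took cells without CD34 protein. It was at 569, 534 and 378 CPM in EGFR-DN and at 318, 410 and 404 CPM in EGFR-WT. The groups overlapped, and the log2 fold change was 0.39 (SE 0.23; 0.54 without EGFR-DN replicate 3). The T cell gene Cd3e and the neutrophil gene Ly6g were at most at 0.254 and 0.0583 CPM. In bulk RNA, fewer cells of a type and less RNA per cell cannot be told apart.

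All 35 members passed the filter on low counts in edgeR, and the lowest member count in any library was 58, for Rad51c. No member passed the test of EGFR-DN against EGFR-WT (0 of 35, edgeR quasi-likelihood test, adjusted over 19313 genes), and over all genes 0.00518% passed, which is Egfr alone. DESeq2, which called 0.775% of all genes, and limma-voom also called 0 members. At an unadjusted p under 0.05, edgeR had 3 members higher in EGFR-DN (Fancd2, Fancm and Fanca) and 0 lower. That is 8.57% of the members beside 6.69% of all genes in either direction, 4.30% higher and 2.40% lower. DESeq2 had the same 3 members higher and 0 lower by that measure, beside 9.13% of all genes, 6.34% higher and 2.79% lower. With limma-voom it was 1, Fancd2, and the share of all genes was not taken for that fit. The median log2 fold change of the members was 0.04 beside 0.01 for all genes, with 21 of 35 above 0 against 51.0% of all genes. With DESeq2, 22 of 35 were above 0 against 51.3%.

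The groups did not overlap for 8 members. In 7 of them, which is 20% of the members beside 9.21% of all genes, the lowest EGFR-DN value exceeded the highest control. These were Fanca, Fancm, Fancd2, Fanci, Brca1, Rbbp8 and Rad51c. Nbn was the 1 member with every EGFR-DN library below, as were 8.72% of all genes.

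**Figure D1:**
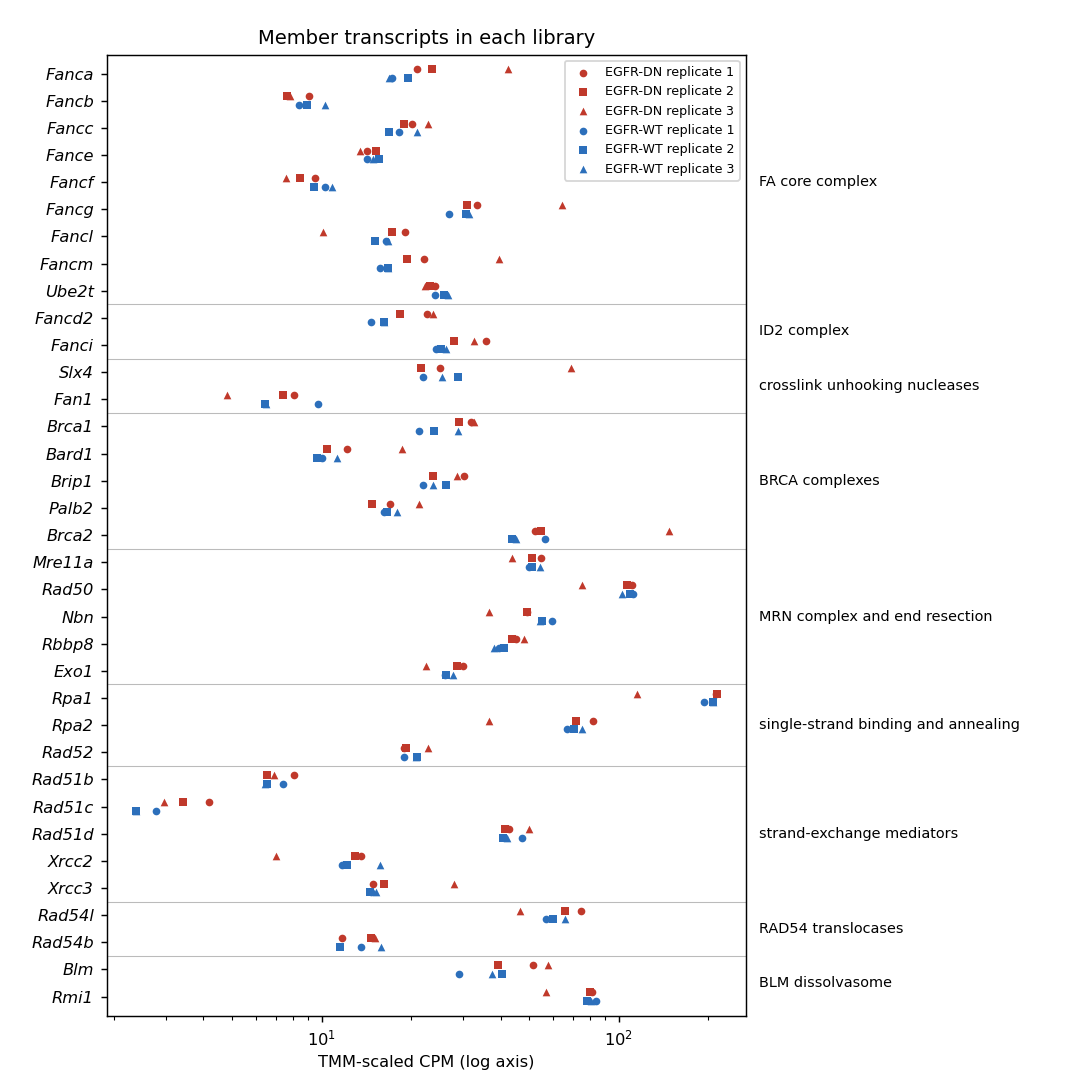
TMM-scaled CPM (log axis) of each member in every library, with EGFR-DN in red, EGFR-WT in blue and a marker shape for each replicate number. Rpa1 was the most abundant member by CPM, at 115.4 to 214, and Rad51c the least, at 2.37 to 4.17, and the EGFR-DN replicate 3 triangle lies away from the other points for Brca2, Slx4, Fanca, Fancg and Fancm.

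Promoters are shown for 4 of the members whose groups did not overlap, so that their upstream sequences can be compared. They were chosen after their values were seen. Rad51c, whose groups did not overlap either, has 2 promoter entries, which are described but not printed, and Fancd2, Rbbp8 and Nbn were not matched. Of the 35 members, 27 had an entry in the RefSeq promoter table (build GRCm38.p6, an earlier build than the mm39 of the counts), with 31 promoters in all. Each run below gives the 250 bases before the RefSeq start, 5′ to 3′ on the gene's strand, and capitals mark CCAAT on either strand, the word bound by NF-Y. The positions in GRCm38.p6 are chr8:123318577-123318826 (minus strand) for Fanca, chr12:65075353-65075602 (plus strand) for Fancm, chr11:101551956-101552205 (minus strand) for Brca1 and chr7:79392088-79392337 (plus strand) for Fanci.
Fanca: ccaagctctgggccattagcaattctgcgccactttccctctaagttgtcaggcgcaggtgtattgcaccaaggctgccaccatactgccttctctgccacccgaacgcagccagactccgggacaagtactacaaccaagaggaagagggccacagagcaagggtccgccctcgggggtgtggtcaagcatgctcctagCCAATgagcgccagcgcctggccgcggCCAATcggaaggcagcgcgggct
Fancm: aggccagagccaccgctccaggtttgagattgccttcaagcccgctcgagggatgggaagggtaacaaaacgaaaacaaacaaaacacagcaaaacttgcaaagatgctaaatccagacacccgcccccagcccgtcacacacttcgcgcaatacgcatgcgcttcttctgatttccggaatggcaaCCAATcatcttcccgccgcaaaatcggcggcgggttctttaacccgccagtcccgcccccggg
Brca1: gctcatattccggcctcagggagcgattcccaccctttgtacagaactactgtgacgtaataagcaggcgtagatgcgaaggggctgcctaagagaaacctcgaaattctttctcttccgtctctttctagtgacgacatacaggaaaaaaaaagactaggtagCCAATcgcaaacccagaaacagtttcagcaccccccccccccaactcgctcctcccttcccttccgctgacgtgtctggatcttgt
Fanci: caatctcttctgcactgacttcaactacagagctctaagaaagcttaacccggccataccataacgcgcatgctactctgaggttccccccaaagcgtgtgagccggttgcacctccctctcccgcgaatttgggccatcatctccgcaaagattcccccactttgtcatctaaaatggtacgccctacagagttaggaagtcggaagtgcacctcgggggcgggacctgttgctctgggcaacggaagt

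CCAAT was found in 20 of 31 member promoters (64.5%) beside 33.8% of all 32851 promoters and 34.8% of those of genes tested here. Fanca held it at 2 places, Fancm and Brca1 at 1 each, and Fanci and both Rad51c promoters at none. Among the other members Xrcc3 held 6 copies, and Ube2t, Rpa2, Fancf and Brip1 held 3 each. The E2F words TTTCGCG and TTTGGCG, which mark some genes of S phase, were in 3 of 31 member promoters (Brip1, Rad51b and Rpa1), or 9.68% beside 1.93% of all promoters. TTTGAA, the cell cycle homology word of G2 and M phase genes, was in 1 (Bard1), beside 16%, and the ETS word CCGGAAG in 5 (16.1%), beside 6.91%. Among promoters of genes tested here those shares were 11.6% for TTTGAA, 11.9% for CCGGAAG, 1.26% for TTTCGCG and 1.88% for TTTGGCG. No searched word contains another, both strands were searched, and these are matches of letters, which show neither binding nor absence of a factor.

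The pair at the centre of the pathway, Fancd2 and Fanci, was at a higher level in every EGFR-DN library. Fancd2, whose protein is ubiquitinated at the crosslink, was at 22.6, 18.3 and 23.8 CPM in EGFR-DN replicates 1 to 3 and at 14.7, 16.2 and 16.2 CPM in EGFR-WT replicates 1 to 3. Fanci, its partner, was at 35.7, 27.9 and 32.6 CPM against 24.2, 25.2 and 26.2 CPM. EGFR-DN replicate 2 was the lowest of its group for both genes, and the groups did not overlap. The means were 1.37-fold apart for Fancd2 (21.6 ± 2.86 against 15.7 ± 0.852 CPM, SD, n = 3 each) and 1.27-fold for Fanci (32.1 ± 3.89 against 25.2 ± 0.972 CPM). The fitted log2 values were 0.46 (SE 0.16) and 0.35 (SE 0.15), and neither passed (edgeR adjusted p = 0.690 for each). Without EGFR-DN replicate 3 they were 0.38 and 0.33. Of the exon bases of Fanci, 16% are shared with Polg on the other strand. The library kit does not mark strand, so reads there cannot be assigned. Polg itself was at 0.27 (SE 0.15).

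The core complex, the ubiquitin ligase that acts on this pair, split among its genes. The 9 members grouped here include Ube2t, which is not a subunit of the ligase. Of the 9, 4 had a log2 fold change above 0 and 5 below, with a median of -0.06. Without EGFR-DN replicate 3 it was 5 of 9 above 0, with a median of 0.06. Fancm, the DNA translocase that anchors the complex to chromatin, was at 22.1, 19.4 and 39.5 CPM in EGFR-DN replicates 1 to 3 and at 15.7, 16.7 and 16.7 CPM in EGFR-WT. Fanca, a scaffold subunit, was at 21.0, 23.5 and 42.3 CPM against 17.3, 19.5 and 16.8 CPM. Both genes lay above the EGFR-WT range in all 3 EGFR-DN libraries, and replicate 3 held by far the highest value. The log2 fold changes were 0.72 (SE 0.28) for Fancm and 0.69 (SE 0.28) for Fanca (edgeR adjusted p = 0.690 for each), and they were 0.34 and 0.31 without EGFR-DN replicate 3. Zfp276 shares 10.5% of the exon bases of Fanca on the other strand and was at 0.21 (SE 0.20).

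Fancg, which binds FANCA, was the most abundant core member by CPM. It was at 33.3, 30.9 and 64.4 CPM in EGFR-DN and at 26.8, 30.5 and 31.2 CPM in EGFR-WT. Replicates 1 and 3 lay above the control range, replicate 3 far above it and replicate 2 within it, and the log2 fold change of 0.54 (SE 0.29) became 0.12 without that library. Fancl, the catalytic ligase subunit, went the other way in replicate 3, at 10.1 CPM there against 15.1 to 19.1 CPM in the other 5 libraries, and its log2 fold change was -0.06 (SE 0.25) with that library and 0.17 without it. Ube2t, the conjugating enzyme that supplies ubiquitin, stayed within 22.2 to 26.5 CPM in all 6 libraries. The remaining subunits Fancb, Fancc, Fance and Fancf had log2 fold changes between -0.25 and 0.14, and their groups overlapped. Of their exon bases, other genes overlap 16.4% in Fancc and 15.0% in Fancf, and 13.7% in Fancl.

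The nucleases that unhook a crosslink differed between libraries more than between groups. Slx4, the scaffold that brings endonucleases to the lesion, was at 25.0, 21.6 and 69.3 CPM in EGFR-DN and at 21.98, 28.8 and 25.4 CPM in EGFR-WT. Its log2 fold change was 0.60 (SE 0.44) over 6 libraries and -0.13 without EGFR-DN replicate 3, so 1 library set its sign. Fan1, a nuclease recruited by ubiquitinated FANCD2, was at 4.82 to 9.75 CPM, lowest in the same replicate 3, with a log2 fold change of -0.16 (SE 0.29; 0.03 without it).

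All 5 genes of the BRCA complexes had a log2 fold change above 0, with a median of 0.34, and none passed. Brca1, which promotes end resection and brings PALB2 to breaks, was at 31.7, 29.0 and 32.5 CPM in EGFR-DN and at 21.3, 23.8 and 28.7 CPM in EGFR-WT. The groups did not overlap, although the lowest EGFR-DN value lay close to the highest control, and the log2 fold change was 0.34 (SE 0.16; 0.30 without EGFR-DN replicate 3). Brca2, a mediator of homologous recombination, was at 52.3, 54.6 and 147 CPM in EGFR-DN and at 56.7, 43.8 and 45.3 CPM in EGFR-WT. EGFR-DN replicate 3 alone exceeded the control range, and the log2 fold change fell from 0.80 (SE 0.41) to 0.13 without it. Bard1, the ubiquitin ligase partner of BRCA1, was at 0.41 (SE 0.25; 0.12 without that library). Brip1, a helicase that binds BRCA1, was at 0.20 (SE 0.16) and Palb2, the bridge to BRCA2, at 0.06 (SE 0.18; -0.09 without that library). Without EGFR-DN replicate 3 the median of the 5 genes was 0.13, with 4 of 5 above 0.

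**Figure D2:**
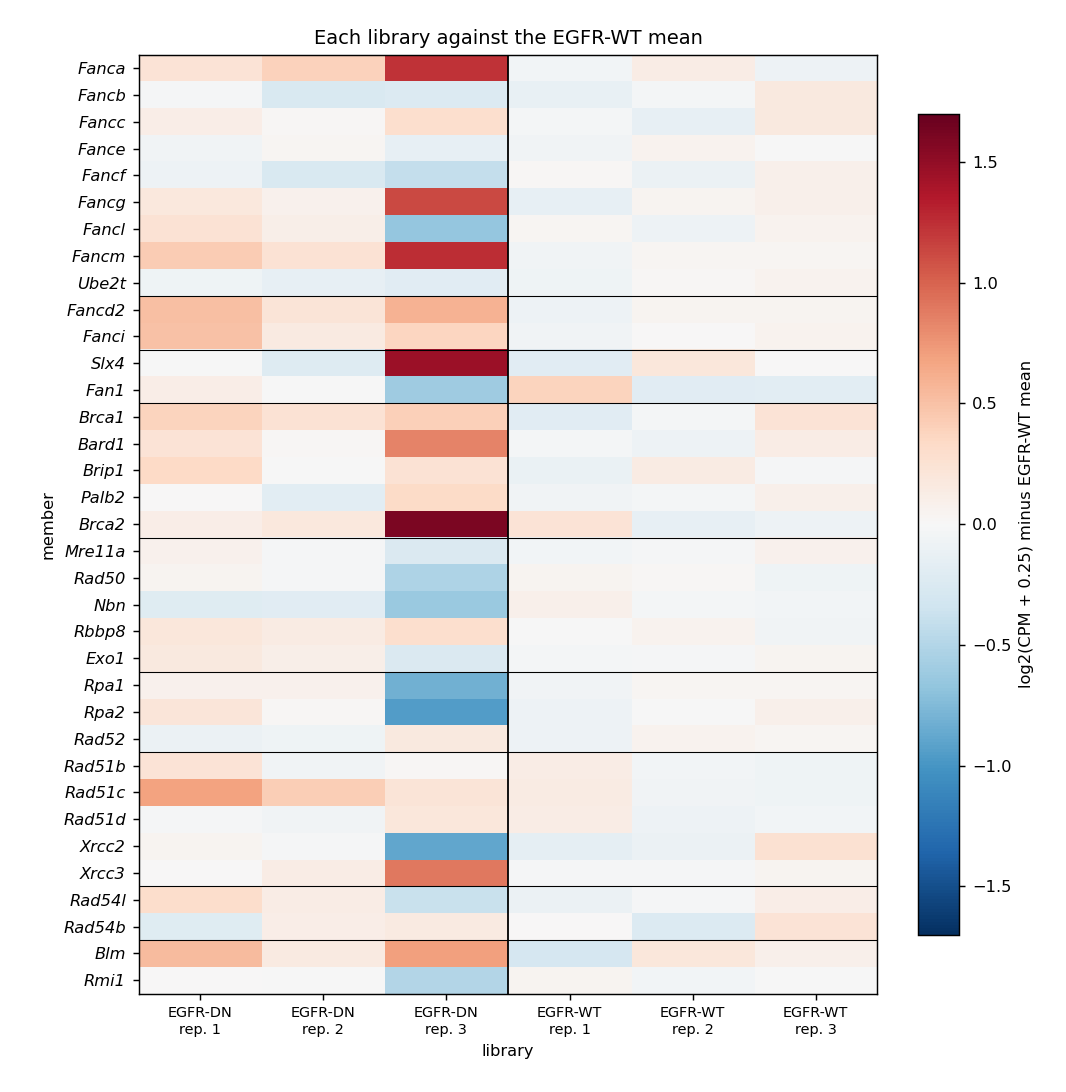
Colour gives log2(CPM + 0.25) of each member (rows, in the order of their roles) in each library (columns) minus the mean of the 3 EGFR-WT libraries, red above and blue below. EGFR-DN replicate 3 has 9 members more than 0.5 above and 8 more than 0.5 below the control mean, EGFR-DN replicate 1 has 3 above, and the other 4 libraries have 0.

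Genes of the MRN complex and of end resection, which trim a break to single strands, had a median log2 fold change of -0.06, with 2 of 5 above 0. Without EGFR-DN replicate 3 the median was 0.02, with 4 of 5 above 0. Nbn, the subunit that brings in the ATM kinase, was at 49.1, 49.2 and 36.5 CPM in EGFR-DN and at 59.8, 55.2 and 54.5 CPM in EGFR-WT. Every EGFR-DN library lay below the control range. The means were 44.9 ± 7.28 and 56.5 ± 2.88 CPM, and the fitted difference was -0.33 on the log2 scale (SE 0.16, edgeR adjusted p = 0.690; -0.21 without EGFR-DN replicate 3). Rad50, the coiled-coil ATPase of the same complex and its most abundant gene by CPM, was at 111.2, 106 and 75.2 CPM against 111.8, 109 and 103 CPM. Its log2 fold change of -0.15 (SE 0.19) became 0.01 without replicate 3. The nuclease gene Mre11a was at -0.06 (SE 0.14; 0.02 without it). Rbbp8, which encodes the resection factor CtIP, was at 43.8 to 48.1 CPM in EGFR-DN against 38.1 to 41.2 CPM in EGFR-WT, so its groups did not overlap, and the log2 fold change was 0.21 (SE 0.13; 0.16 without replicate 3). Exo1, the long-range resection nuclease, was at 0.02 (SE 0.16; 0.13 without it).

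Of the 3 genes that coat and anneal single strands, 0 were above 0 with all libraries and 2 without EGFR-DN replicate 3. Rpa1, the large subunit of replication protein A, was at 213, 214 and 115.4 CPM in EGFR-DN and at 194, 208 and 207 CPM in EGFR-WT. EGFR-DN replicates 1 and 2 were above all control libraries and replicate 3 far below, so the log2 fold change was -0.17 (SE 0.26) with it and 0.07 without it. Rpa2, the middle subunit, was at 81.7, 71.6 and 36.5 CPM against 66.9 to 74.97 CPM, so replicate 1 lay above the controls, replicate 2 within them and replicate 3 below. Its log2 fold change was -0.16 (SE 0.29) with replicate 3 and 0.11 without it. Rad52, an annealing protein, had the same mean in both groups, 20.3 ± 2.14 and 20.3 ± 1.09 CPM, and was at -0.09 without replicate 3.

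Rad51b, Rad51c, Rad51d, Xrcc2 and Xrcc3, whose proteins form complexes that act as mediators of strand exchange, held the least abundant member. Rad51c, whose protein is found in both of these complexes, was at 4.17, 3.40 and 2.94 CPM in EGFR-DN and at 2.76, 2.37 and 2.37 CPM in EGFR-WT, from 58 to 143 counts a library. The groups did not overlap, and the log2 fold change was 0.49 (SE 0.26) with all libraries and 0.59 without EGFR-DN replicate 3. Rad51d, by CPM the most abundant of the 5, was at 42.7, 41.4 and 49.8 CPM against 47.3, 40.9 and 42.1 CPM. Its groups overlapped, at 0.04 (SE 0.14; -0.05 without replicate 3). Rad51b was at 0.07 (SE 0.20). Xrcc3 was at 0.41 (SE 0.26) and Xrcc2 at -0.24 (SE 0.28). Without replicate 3 Xrcc3 was at 0.07 and Xrcc2 at -0.0034.

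The late steps showed 1 gene with a larger difference. Blm, the helicase that dissolves joint molecules, was at 51.4, 39.4 and 57.6 CPM in EGFR-DN and at 29.0, 40.4 and 37.6 CPM in EGFR-WT. EGFR-DN replicate 2 fell within the control range, and the log2 fold change was 0.47 (SE 0.20; 0.34 without EGFR-DN replicate 3). Rmi1, its partner, was at 81.0, 80.2 and 57.1 CPM against 83.6, 78.3 and 80.8 CPM, a log2 fold change of -0.15 (SE 0.18) that was -0.0090 without replicate 3. Rad54l, the translocase that helps strand invasion, was at 74.6, 66.2 and 46.7 CPM against 56.9, 60.0 and 65.7 CPM. Again EGFR-DN replicates 1 and 2 were above all controls and replicate 3 below all of them. The log2 fold change was 0.04 (SE 0.20) with 6 libraries and 0.20 without replicate 3. Lrrc41, which overlaps 15.4% of its exon bases, was at -0.21 (SE 0.15). Rad54b was at 0.02 (SE 0.20; -0.05 without replicate 3), and 35.8% of its exon bases are shared with Fsbp on the same strand, so its values are uncertain.

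**Figure D3:**
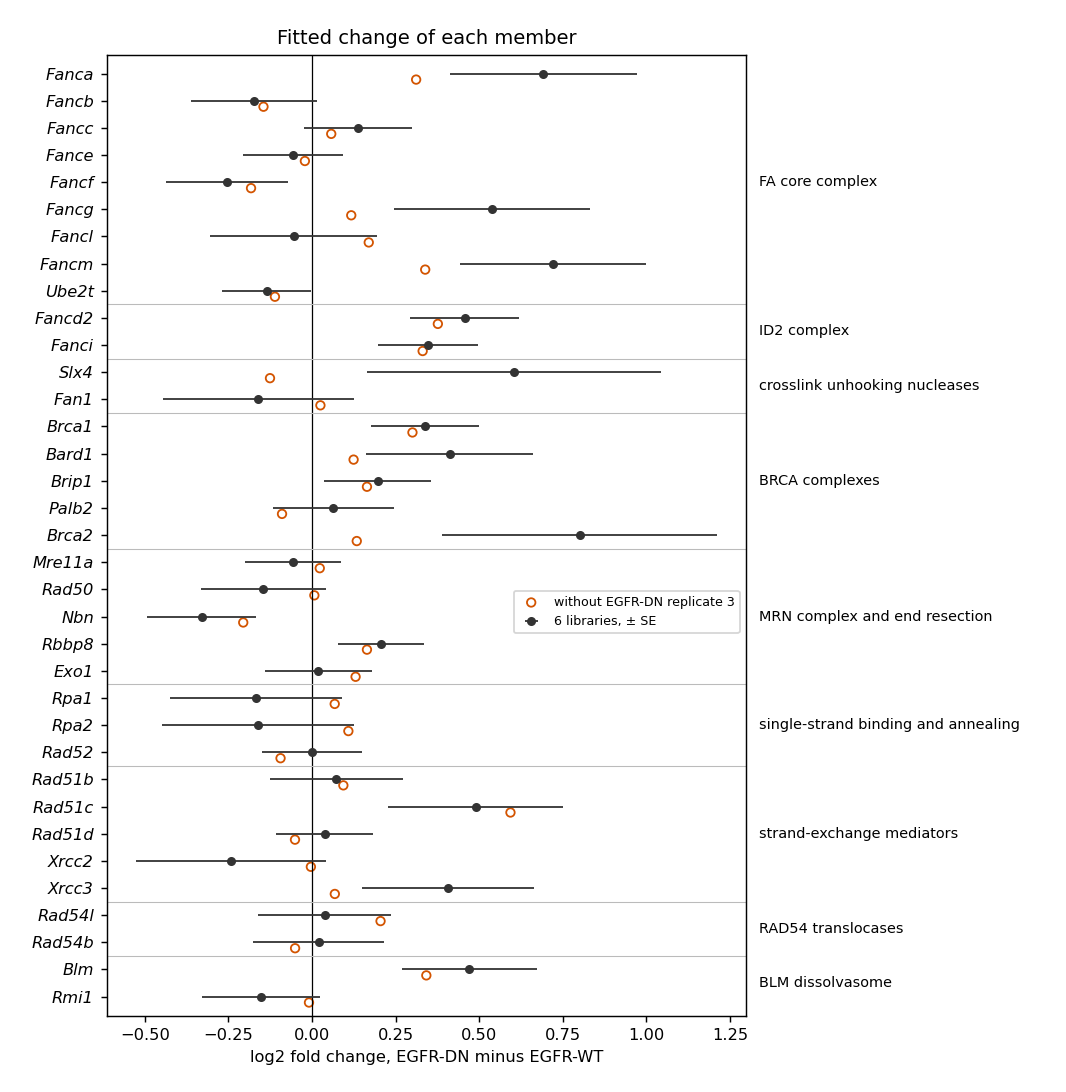
Fitted log2 fold change of each member, EGFR-DN minus EGFR-WT, with its SE over 6 libraries (filled points and bars), and the value without EGFR-DN replicate 3 (open circles). The open circles of Brca2, Slx4, Fanca, Fancg and Fancm lie far to the left of the filled points, whereas those of Fancd2, Fanci and Brca1 lie close to them.

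Without EGFR-DN replicate 3, 23 of 35 members were above 0 beside 48.9% of all genes, with a median log2 fold change of 0.07. At an unadjusted p under 0.05, 6 members were then higher (Fanca, Fancm, Fancd2, Fanci, Rad51c and Rad54l) beside 6.64% of all genes. Nbn was lower, beside 6.99%, and in either direction 13.6% of all genes passed that mark. None passed after adjustment over all genes (edgeR, 0 of 35, smallest adjusted p = 0.240, for Fancm), whereas 0.286% of all genes did. The spread over members of the difference from the EGFR-WT mean was 0.687 (SD, on the log2 scale) in EGFR-DN replicate 3 against 0.214 and 0.162 in EGFR-DN replicates 1 and 2. Over all coding genes tested it was 0.826, 0.442 and 0.366.

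Long transcripts tended to lie higher in EGFR-DN replicate 3. Across the 35 members its difference from the EGFR-WT mean correlated with the length of the longest coding transcript at a Spearman rho of 0.406, and across 12804 coding genes at 0.424. In EGFR-DN replicates 1 and 2 rho was 0.477 and 0.402 across the members but 0.01 and -0.01 across all coding genes. These points share libraries and depth, and the part of transcript length in the values above was not tested.

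Levels between members were compared per kb of longest coding transcript (GENCODE M21), over all 6 libraries. The single-strand binding genes Rpa1 and Rpa2 stood at the top, at 37.8 and 37.0 CPM per kb. Ube2t (21.8), Rad54l (20.4), Nbn (20.02) and Rad50 (19.95 CPM per kb) followed. The pair Fanci and Fancd2 was at 6.16 and 3.38 CPM per kb, and Brca2 and Brca1 at 6.21 and 4.24. Rad51c (0.761), Fan1 (2.07) and Bard1 (2.13 CPM per kb) were at the bottom. With all exons of a gene merged the order changed, since Ube2t dropped to 5.02 and Rad54l to 8.002 CPM per kb and Bard1 was no longer among the lowest 3. Rpa1 and Rpa2 remained at the top and Fan1 and Rad51c at the bottom.

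The members were set beside further genes of the same processes. Among 35 further homologous recombination and Fanconi genes, 16 were above 0 and 19 below, with a median of -0.07 (0.04 without EGFR-DN replicate 3). No gene of that list passed with either edgeR or DESeq2. By the unadjusted measure 1 was higher and 0 were lower. That gene was Gen1, a resolvase of joint molecules, at 9.89, 9.87 and 17.9 CPM in EGFR-DN against 6.64, 6.50 and 9.31 CPM in EGFR-WT (log2 fold change 0.74, SE 0.30; 0.40 without replicate 3). Eme1, the partner of the MUS81 nuclease, followed at 0.45 (SE 0.22; 0.33 without it). Of 17 genes of ATM and ATR signalling, 12 were above 0, with a median of 0.17 that was 0.01 without replicate 3, and 0 had an unadjusted p under 0.05. The histone gene H2ax, whose product is phosphorylated at breaks, was at 0.56 (SE 0.28; 0.16 without replicate 3) and the mediator gene Mdc1 at 0.82 (SE 0.48; -0.03 without replicate 3).

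Proliferation genes are given beside the members because both are raised in cycling cells. Of 23 genes of G1/S and DNA replication, 12 were above 0, with a median of 0.0025. Without EGFR-DN replicate 3, 22 of 23 were above 0, the median was 0.17, and 6 were higher at an unadjusted p under 0.05. The G2/M list of 20 genes had a median of -0.02 (9 above 0) and of 0.05 without replicate 3 (16 above 0). Mcm2, a subunit of the replicative helicase, was at 245, 209 and 450 CPM in EGFR-DN against 170, 210 and 199 CPM in EGFR-WT, a log2 fold change of 0.64 (SE 0.31) that was 0.23 without replicate 3. The S phase licensing gene Cdc6 was at 0.32 (SE 0.16; 0.24 without it). The proliferation marker Mki67 was at 315, 274 and 1126 CPM against 256, 233 and 278 CPM (1.16, SE 0.54; 0.20 without replicate 3), and Foxm1, a factor of G2/M transcription, was at 0.53 (SE 0.25; 0.21 without replicate 3). In EGFR-DN replicates 1 and 2 the replication list thus lay above the controls' mean, as did Fancd2, Fanci and Rad54l. Its part in their values was not tested.

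**Figure D4:**
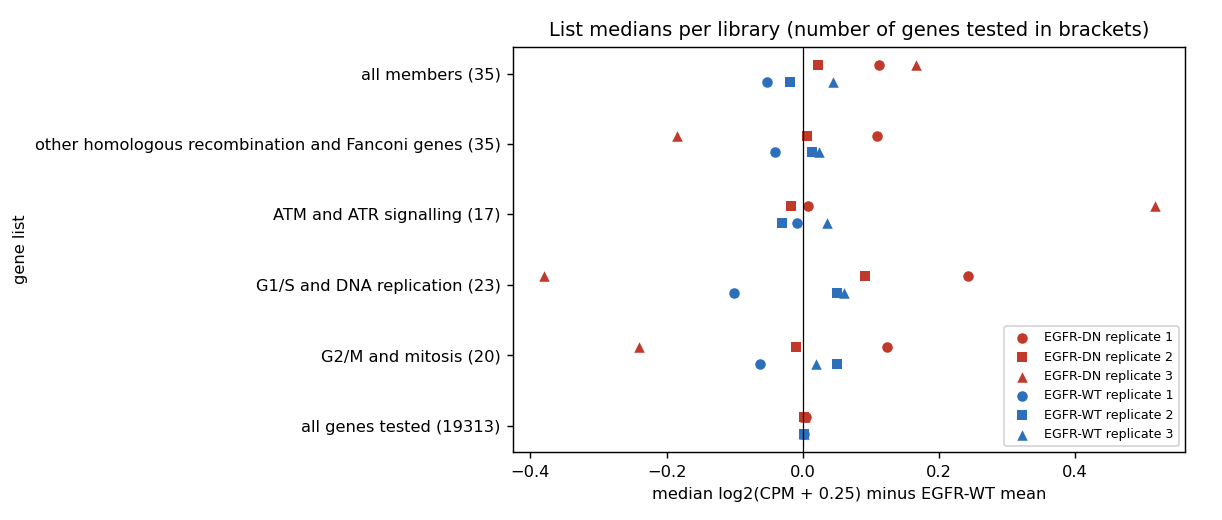
Median over the genes of each list of log2(CPM + 0.25) minus the EGFR-WT mean, for each library (EGFR-DN red, EGFR-WT blue, marker shape by replicate number). The member medians were 0.11, 0.02 and 0.17 in EGFR-DN replicates 1 to 3 and -0.05, -0.02 and 0.04 in EGFR-WT replicates 1 to 3, whereas the replication list lay at 0.24 and 0.09 in EGFR-DN replicates 1 and 2 and at -0.38 in replicate 3.

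Markers of some other marrow cells also differed between groups. The 10 neutrophil granule genes summed to 896 to 1436 CPM in EGFR-DN against 403 to 584 CPM in EGFR-WT, and all 9 tested were above 0. Most of that sum in every library was Mpo, at 262 to 1261 CPM. EGFR-DN replicate 3 gave the highest sum. Its median log2 difference from the EGFR-WT mean over the tested genes was only 0.12, against 1.08 and 1.23 in EGFR-DN replicates 1 and 2. The 7 monocyte and dendritic cell genes were also all above 0, with a median log2 fold change of 1.34 and 5 at an unadjusted p under 0.05. Their sum overlapped, at 234 to 434 against 128 to 370 CPM, and most of it in every library was Cd74, at up to 379 CPM. Of the 8 B lineage genes all 7 tested were above 0, with a median of 0.97 and 3 at an unadjusted p under 0.05. Their sum, most of which in every library was Ighm at 564 to 8425 CPM, was 1922 to 8478 against 601 to 5029 CPM. The 8 erythroid genes summed to 349 to 617 against 245 to 394 CPM, with 6 of 8 above 0. Car1, at 164 to 460 CPM, was most of that sum in every library. The 7 T and NK cell genes summed to 168 to 260 against 114.2 to 160 CPM, with 4 of 5 tested above 0. Most of this sum in every library was Nkg7, at 98.9 to 226 CPM, whereas Cd3e, Cd3g and Cd8a reached at most 0.868 CPM. Cd3g was the 1 tested gene below 0, at -0.57 (SE 0.72). Megakaryocyte genes did not lean either way, with 3 of 6 above 0, a median log2 fold change of 0.02 and 0 at an unadjusted p under 0.05. Of the 7 stromal and endothelial genes 6 were tested, with 3 above 0, a median of -0.11 and 1 higher at an unadjusted p under 0.05. No marker was at 0 in all 6 libraries. The part of these cells in the member values was not tested.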

How the data were processed

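RNA of 6 libraries was measured. Per the labels' protocols, oligo(dT)-primed SMART-Seq v4 cDNA from 10 ng of RNA was made into Nextera XT libraries and read as 75-base single reads. The deposited values are the authors' estimated counts for each gene symbol, unscaled, with 79.4% of values whole. DRAGEN, DESeq2 1.40.2, R 4.3.1 and mm39 appear in the submitters' processing notes. The gene annotation is not given in the sources used here.

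Counts were rounded, filtered with filterByExpr (19313 genes kept), TMM-scaled and compared by edgeR 4.0.16 (R 4.3.3; quasi-likelihood, both directions). Benjamini-Hochberg adjusted p-values cover all genes, with a threshold of 0.05. Each SE is |log2 fold change| over the root of its F. Differences of single libraries use log2(CPM + 0.25). Alternatives used DESeq2 1.42.0, limma 3.58.1, other scalings and filters, a replicate block, and each library left out. The test was checked on simulated counts with the same dispersion for every gene and no outlying library. That check does not cover a library such as EGFR-DN replicate 3. No library was a duplicate of another (chi-square per degree of freedom at least 16.3). A count of 3 equals 0.0833 to 0.125 CPM, for counting error only.

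All members are named. Values in every library are given for the most abundant member and the one with the smallest p in each role group, and for members with an unadjusted p under 0.05. Up to 2 genes with the smallest p are named from each further list. Rpa2 and, from the further lists, Aldh2, Adh5, Aldh9a1 and Aldh3a2 were added after their values were seen. A gene of the further recombination list is not reported here. Members and lists were chosen with earlier results of these data known. The table held 0 columns of other samples.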

Additional observations from a re-analysis of the deposited data

How the results depend on the processing

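No member passed under any of the 15 alternatives. The count of all genes past the threshold was 135 with DESeq2 and 0 with limma-voom, and 0 to 57 with a library left out, the 57 without EGFR-DN replicate 3 and 0 without any one EGFR-WT library. Members at an unadjusted p under 0.05 numbered 1 with limma-voom, 5 with at least 50 counts in 3 libraries and 1 with the replicate block (Fancm). They numbered 0 to 7 with a library left out, 7 without EGFR-DN replicate 2 or 3 and 0 without EGFR-WT replicate 1 or 2. Of all genes, 6.69% passed that mark with edgeR over 6 libraries, 9.13% with DESeq2 and 13.6% without EGFR-DN replicate 3. That share was not taken for the other settings, so these counts are not read as a result about the members. With library size alone the median of all genes moved from 0.01 to -0.10 and that of the members to -0.072. Of the 16 members for which the rule gives values in every library, 5 changed sign under some alternative. Rad51d and Rad54l lay near 0 in the main fit, at 0.04 each. Slx4 (0.60), Rpa1 (-0.17) and Rad50 (-0.15) changed sign without EGFR-DN replicate 3. Rad51d was at -0.090 with library size alone and -0.010 with no filter, and Rad54l at -0.051 with library size alone. With a library left out, Rad54l ranged from -0.11 to 0.20, Rad51d from -0.051 to 0.092, Rad50 from -0.25 to 0.0070, Rpa1 from -0.32 to 0.068 and Slx4 from -0.13 to 0.87. Deviations of same-numbered libraries from their group means correlated at -0.019, 0.055 and 0.064. Those means include the outlying EGFR-DN replicate 3, so these values cannot show whether the replicate numbers pair libraries. The cause of the shifts between settings was not tested.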

Other observations

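Genes that clear formaldehyde and acetaldehyde, the reactive metabolites from which the Fanconi pathway is known to protect blood stem cells, lay mostly below 0. Of 6 tested, 5 were below 0, with a median log2 fold change of -0.22 (-0.07 without EGFR-DN replicate 3). None passed with edgeR, where 1, Aldh1a1, had an unadjusted p under 0.05. DESeq2 called 1 of the 6, also Aldh1a1. Aldh1a1 encodes a retinaldehyde dehydrogenase that also acts on other aldehydes. It was at 57.8, 66.5 and 44.5 CPM in EGFR-DN replicates 1 to 3 and at 128.0, 110.4 and 97.5 CPM in EGFR-WT replicates 1 to 3. Its log2 fold change was -0.99 (SE 0.20, edgeR adjusted p = 0.642), and -0.85 without EGFR-DN replicate 3. The esterase gene Esd, which acts in formaldehyde clearance, was at 116.9, 112.3 and 64.1 CPM against 136, 126.9 and 117.1 CPM (-0.37, SE 0.25; -0.15 without EGFR-DN replicate 3). Aldh2, an aldehyde dehydrogenase gene, was at 375.7, 384.9 and 318 CPM against 439.3, 399 and 397.9 CPM. Its log2 fold change was -0.20 (SE 0.17), and -0.12 without EGFR-DN replicate 3. For these 3 of the 6 genes all EGFR-DN values lay below all control values, as they did for 8.72% of all genes. The groups overlapped for Adh5 (-0.24, SE 0.24), Aldh9a1 (0.18, SE 0.16) and Aldh3a2 (-0.06, SE 0.14). Without EGFR-DN replicate 3 these were at -0.02, 0.05 and 0.0047.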
